A study of Mus musculus with 10 samples.

Results

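Signal of IKZF2 at 9 genes of the STAT and NF-kB pathways was described: Stat3, Stat5a, Stat5b, Stat6, Rela, Relb, Nfkb1, Nfkb2 and Nfkbia. The genes were chosen from earlier results of the same data, in which Stat3 and Rela stood among the genes with high signal, so their levels are given as a description with no test. They are 9 of 21883 protein-coding genes, and the regions in a gene span or within 10 kb of either gene end numbered 55 of 151133. The cells were RN2, a C57BL/6 mouse leukaemia line carrying the MLL-AF9 fusion and NRASG12D, transduced with a retrovirus for murine IKZF2 and RFP, then sorted and cultured for 2 weeks. CUT&RUN, in which an antibody-guided nuclease releases the DNA around its target, was done with an anti-IKZF2 antibody in 3 libraries of 2 technical replicates each, which gave 6 samples. A further 4 samples, with a control antibody, are not analysed here; regions were set only against other regions of the same libraries. All cells carried the IKZF2 virus, and the promoter driving it is not given in the sources used here. The files hold no expression values, so the cell label was not checked against marker genes. The labels do not state whether the libraries were separate cultures, and the spread between them may be technical.

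STAT proteins are latent transcription factors that cytokine receptors activate through JAK kinases, after which they enter the nucleus as dimers. NF-kB dimers of Rel proteins are held in the cytoplasm by IkB inhibitors or by the unprocessed p100 precursor and are freed when IkB kinases are activated. Both pathways carry cytokine and growth signals in myeloid and leukaemic cells. IKZF2, also called Helios, is a zinc-finger DNA-binding protein of the Ikaros family, whose members recognise sites with a GGGAA core.

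Reads in regions numbered 1375495, 1296355 and 1755015 in technical replicate 2 of libraries 1, 2 and 3, against 299742, 273896 and 326440 in technical replicate 1. The median region held 7 to 10 reads in the deeper technical replicate 2, against 2 in technical replicate 1. Technical replicates were summed for each library. A region's value was its CPM (counts scaled to the library's total of reads in regions) per kb of region, and a gene's value was that of its highest region by the mean of the 3 libraries. Among the 18928 genes with a region the median value was 63.8 CPM per kb, and the top 10% of genes began at 106.9. Even numbers made up 58.0 to 61.2% of the counts of 10 or more in technical replicate 2, against 84.7 to 87.4% in technical replicate 1, so reads are not independent and an interval from counts would cover counting error only.

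Stat3 and Rela had the highest values of the 9 genes and were the members in the top 10% of genes, 2 of 9 against 8.65% of all protein-coding genes. The 8.65% also counts genes with no region, while all 9 members had one. Among genes with a region the share is 10% by definition. A gene with more regions has more chances of a high one. The members had 3 to 14 regions, against a median of 3 over all protein-coding genes. Stat3 stood at 170.6 ± 14.4 CPM per kb (SD, n = 3 libraries, here and below) and Rela at 133.4 ± 57.2. Nfkb2 came next at 97.3 ± 31.3, just below the threshold, followed by Nfkb1 at 78.6 ± 49.3, Nfkbia at 68.0 ± 41.8 and Relb at 65.5 ± 49.5. Stat5a at 64.4 ± 52.8, Stat6 at 62.6 ± 42.2 and Stat5b at 54.0 ± 12.2 lay near or below the median gene. This order depends on the division by width. Without it the highest region by CPM was chosen anew, and it stayed the same for 4 of the 9 members. Stat3 then stood at 27.6 CPM, Nfkb2 at 22.4, Stat6 at 15.96 and Rela at 15.07. The values of Nfkb2 and Stat6 came here from other, wider regions, of 318 and 293 bp. In this measure the members in the top 10% of genes were Stat3 and Nfkb2. No neighbours in the order per kb differed by more than the larger of their SDs. Stat3 was the highest member in each library, and its 3 library values overlapped those of Rela but of no other member. Since Stat3 was known to be high when the genes were chosen, this separation is no separate support. With genes ranked in each library by itself, Stat3 was the only member in the top 10% in all 3 libraries, 1 of 9 against 1.73% of genes with a region. Rela was there in 2 libraries and the other members in 0.

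**Figure D1:**
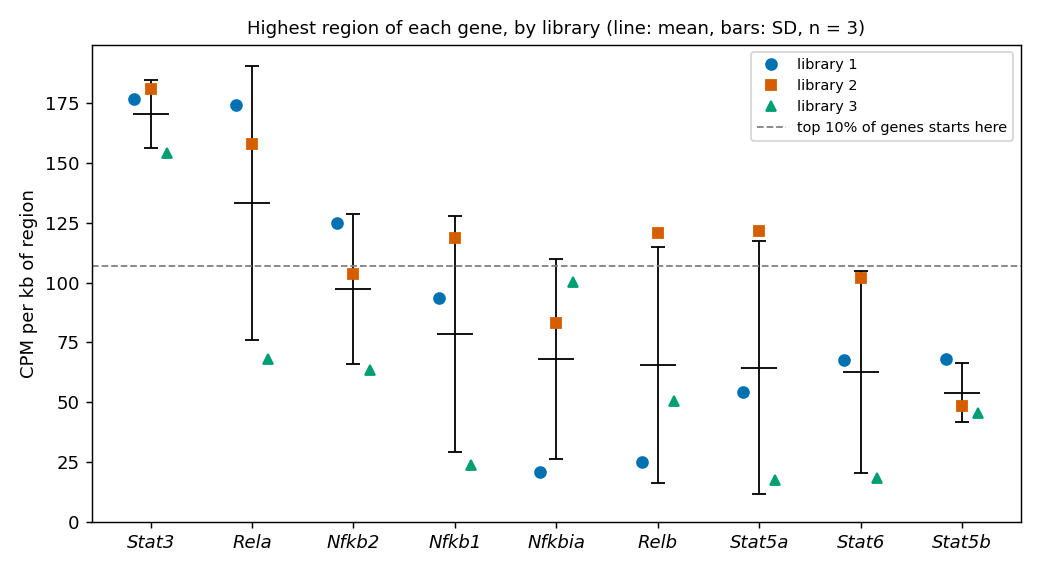
Value of the highest region of each gene (vertical axis, CPM per kb of region) in library 1 (circles), library 2 (squares) and library 3 (triangles), with the mean (line) and SD (bars) of the 3 libraries. Stat3 lies between 154.2 and 180.8 in every library, above the dashed line at 106.9 where the top 10% of genes begins, while library 3 of Rela and of Nfkb2 lies at 68.0 and 63.3.

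The 55 regions were mostly ordinary ones, with a few high regions at Stat3, Rela and Nfkb2. Their median was 52.3 CPM per kb, against 49.5 over all 151133 regions. Their widths ran from 91 to 318 bp with a median of 114 bp, against 109 bp over all regions. Of the 55, 11 (20%) were in the top 10% of regions, which began at 64.05, against 10% of all regions. Nfkb2 held 4 of the 11, Nfkb1 held 2, Stat3, Stat5a, Rela, Relb and Nfkbia held 1 each, and Stat5b and Stat6 held none. A single one, that of Stat3, was in the top 10% in all 3 libraries, as were 975 of all regions (0.645%). Of the 8 that overlapped a RefSeq start window of any gene (250 bases before to 50 after a transcript start), 3 were in the top 10% (37.5%), against 56.5% of all regions in such windows. Of the 47 outside every start window 8 were (17.0%), against 8.39% of all such regions.

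**Figure D2:**
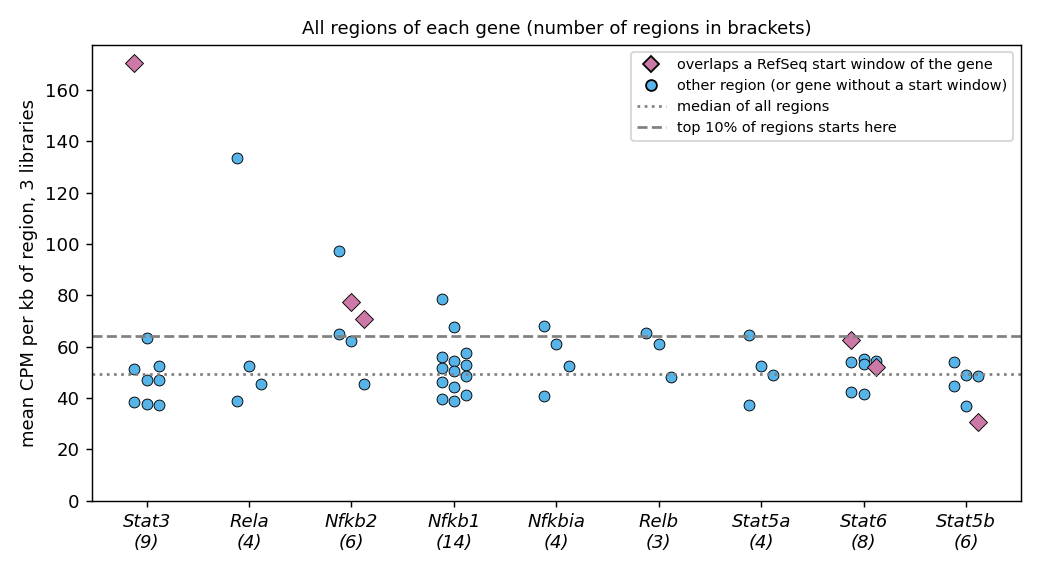
Mean value of every region of each gene over the 3 libraries (vertical axis, CPM per kb of region), with the number of regions in brackets. Diamonds overlap a RefSeq start window of the gene, circles do not or belong to a gene without a window, the dotted line is the median of all regions (49.5) and the dashed line the start of their top 10% (64.05). The highest region stands alone at Stat3 and Rela, while 4 regions lie above the dashed line at Nfkb2.

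Stat3 (GeneID 20848; chromosome 11, 100886806 to 100939594, minus strand) encodes the STAT protein that relays signals of the IL-6 family and of G-CSF. It had 9 regions, 6 of them in the gene span. The highest, chr11:100939747-100939909, is 162 bp wide and lies 154 bp upstream of the span, with its centre 288.5 bp before the RefSeq start, and it also overlaps Gm46295. It held 48, 46 and 52 reads in libraries 1, 2 and 3, which gave 176.9, 180.8 and 154.2 CPM per kb. Its library values were close together, with the highest 1.17 times the lowest, and the region led the gene in each library. It stood above 99.1% of genes, and above 99.0% of regions that overlap a start window. The next region, chr11:100909713-100909837 in the gene span, stood at 63.4 ± 62.2 and was high in library 1 alone, with 134.8, 20.5 and 34.9 in libraries 1, 2 and 3. The highest region held 37.2% of the reads of the 9 regions in 14.0% of their width. The gene's value therefore turned on 1 region, which is wider than the median of 109 bp over all regions. With all regions summed the gene stood at 63.8. On regions of 200 bp or wider, which leave this one out, it stood at 46.8. In neither was Stat3 in the top 10% of genes.

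The start window of Stat3 is shown because its most upstream 43 bases, in capitals, are covered by this region. The sequence is from RefSeq, build GRCm38.p6, which shares coordinates with mm10, at chr11:100939491-100939790 on the minus strand.
Stat3 start window: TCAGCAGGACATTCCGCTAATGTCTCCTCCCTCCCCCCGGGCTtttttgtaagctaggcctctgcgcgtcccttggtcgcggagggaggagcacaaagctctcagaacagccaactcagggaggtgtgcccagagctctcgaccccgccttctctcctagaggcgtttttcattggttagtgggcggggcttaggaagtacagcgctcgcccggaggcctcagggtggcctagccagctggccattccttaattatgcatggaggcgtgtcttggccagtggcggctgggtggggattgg
The window holds no GGGAA, no STAT spacing TTCNNNGAA and no match to the kappaB consensus on either strand. Among 32851 RefSeq start windows, 62.7% hold GGGAA, 8.3% hold TTCNNNGAA and 4.51% hold the kappaB consensus. This says only that these letters are not in this window, which leaves out the rest of the region.

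Stat5a and Stat5b lie next to Stat3 and encode a pair of closely related STAT proteins downstream of IL-3, GM-CSF and other cytokines. Neither had a region near the level of Stat3. Stat5a (GeneID 20850; chromosome 11, 100859351 to 100885169, plus strand) had 4 regions, of which 2 are shared with Stat3 and 1 with Stat5b. Its highest, chr11:100870891-100871001 in the gene span, stood at 54.3, 121.6 and 17.5 CPM per kb in libraries 1, 2 and 3, from 35 reads. Library 2 was thus 6.96 times library 3, and another region led the gene in library 3. Stat5b (GeneID 20851; chromosome 11, 100780731 to 100859004, minus strand) had 6 regions, 5 of them in the span. Its highest, chr11:100826744-100826902 in the span, stood at 68.0, 48.4 and 45.6, from 45 reads. Stat5b had the lowest value of the members and none of its regions was in the top 10%. Its region in the start window of an internal transcript, chr11:100822635-100822753, was the lowest of all 55 at 30.4 ± 14.3, above 0.0516% of all regions. The regions shared between these neighbours stood at 52.3, 48.9 and 37.2, all below the top 10%.

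Stat6 (GeneID 20852; chromosome 10, 127642955 to 127660987, plus strand) encodes the STAT protein of IL-4 and IL-13 signalling. It had 8 regions, or 21.0 per 100 kb of window, the densest set of the members. The median over all protein-coding genes, which include those with no region, was 7.80. None of the 8 was in the top 10% of regions. The highest, chr10:127642661-127642767, lies 188 bp upstream of the span and stood at 67.6, 102.1 and 18.1 CPM per kb in libraries 1, 2 and 3, from 33 reads. It led the gene in none of the libraries. A second region at the start, chr10:127642939-127643075, stood at 26.3, 70.2 and 60.1. The region with the smallest SD of the 55 lies downstream, chr10:127667806-127668099 inside 1700012D01Rik, at 54.5 ± 0.466 from 85 reads.

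The start window of Stat6 is shown because both start regions reach into it. The bases they cover are in capitals, 32 at the upstream end and 96 at the other. The sequence is from RefSeq, build GRCm38.p6, at chr10:127642736-127643035 on the plus strand.
Stat6 start window: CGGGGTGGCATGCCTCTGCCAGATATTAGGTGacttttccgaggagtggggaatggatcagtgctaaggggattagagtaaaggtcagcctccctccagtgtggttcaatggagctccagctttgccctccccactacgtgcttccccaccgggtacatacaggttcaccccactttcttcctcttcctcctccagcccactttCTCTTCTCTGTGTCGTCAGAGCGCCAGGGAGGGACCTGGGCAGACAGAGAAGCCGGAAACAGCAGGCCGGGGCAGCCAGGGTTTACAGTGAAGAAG
GGGAA occurs at positions 49 and 143 counted from the 5′ end, both outside the covered bases, and neither TTCNNNGAA nor the kappaB consensus occurs.

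Rela (GeneID 19697; chromosome 19, 5637442 to 5648134, plus strand) encodes p65, the main transactivating subunit of NF-kB. It had 4 regions, and its high value came from beyond the 3′ end of the gene. The highest region, chr19:5648838-5648951, is 113 bp wide and lies 705 bp downstream of the span, with its centre 11354 bp from the start. It held 33, 28 and 16 reads in libraries 1, 2 and 3, which gave 174.3, 157.8 and 68.0 CPM per kb. Libraries 1 and 2 lay within the range of the Stat3 libraries and library 3 lay far below it. The other 3 regions stood at 52.5, 45.6 and 38.9, and none overlapped the start window. The highest region held 47.0% of the reads in 23.4% of the width, and with all regions summed the gene stood at 65.5. Rela was outside the top 10% both there and in CPM with no division by its 113 bp width. The nearest end of another protein-coding gene is that of Sipa1, 2234 bp away.

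Relb (GeneID 19698; chromosome 7, 19606217 to 19629438) encodes the Rel subunit that pairs with p52 in the non-canonical pathway. It had 3 regions. The highest, chr7:19613930-19614025 in the span, stood at 25.1, 120.7 and 50.6 CPM per kb in libraries 1, 2 and 3, from 32 reads. A wider region, chr7:19604369-19604609, which lies 1608 bp outside the span and overlaps a start window of Clasrp, was steadier at 62.2, 50.4 and 70.1 from 79 reads. Nfkb1 (GeneID 18033; chromosome 3, 135584655 to 135691969) encodes p105, the precursor of p50. It is the longest member and had the most regions, 14, with 13 in the span. The highest, chr3:135691444-135691546, lies 423 bp inside a span end and stood at 93.6, 118.6 and 23.6, from 40 reads. A different region led Nfkb1 in each library, with values of 102.2, 118.6 and 105.5.

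Nfkb2 (GeneID 18034; chromosome 19, 46300994 to 46312400, plus strand) encodes p100, the precursor of p52. It had several raised regions side by side: 4 of its 6 regions were in the top 10%, and 3 of them lie within 1562 bp around its starts. The highest, chr19:46304246-46304375, has its centre 426 bp before a RefSeq start and stood at 124.9, 103.7 and 63.3 CPM per kb in libraries 1, 2 and 3, from 65 reads. The second, chr19:46304546-46304739, stood at 86.6, 66.0 and 79.7, from 80 reads, with its library values close together. The third, chr19:46305490-46305808, is the widest of the 55 at 318 bp and stood at 63.8, 116.2 and 31.7, from 113 reads. Together these 3 regions held 258 reads over 640 bp, or 83.0, 98.5 and 52.6 CPM per kb (78.0 ± 23.4). With all regions summed, Nfkb2 was the only member in the top 10% of genes. All 3 also overlap 4833438C02Rik, which has a RefSeq start in the third region, so the signal cannot be assigned to 1 of these genes.

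A pair of start windows of Nfkb2 is shown because most of their bases are covered by the second and the third region, in capitals. They were picked after their values were seen. The sequences are from RefSeq, build GRCm38.p6, plus strand, at chr19:46304487-46304786 and chr19:46305445-46305744.
Nfkb2 first window: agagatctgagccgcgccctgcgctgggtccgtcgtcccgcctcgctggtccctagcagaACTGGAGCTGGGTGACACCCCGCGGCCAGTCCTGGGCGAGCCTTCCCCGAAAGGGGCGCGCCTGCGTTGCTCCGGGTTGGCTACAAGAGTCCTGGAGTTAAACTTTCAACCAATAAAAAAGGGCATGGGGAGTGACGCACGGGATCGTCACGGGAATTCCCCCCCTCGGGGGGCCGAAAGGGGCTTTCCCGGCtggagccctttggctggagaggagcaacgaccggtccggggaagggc
Nfkb2 second window: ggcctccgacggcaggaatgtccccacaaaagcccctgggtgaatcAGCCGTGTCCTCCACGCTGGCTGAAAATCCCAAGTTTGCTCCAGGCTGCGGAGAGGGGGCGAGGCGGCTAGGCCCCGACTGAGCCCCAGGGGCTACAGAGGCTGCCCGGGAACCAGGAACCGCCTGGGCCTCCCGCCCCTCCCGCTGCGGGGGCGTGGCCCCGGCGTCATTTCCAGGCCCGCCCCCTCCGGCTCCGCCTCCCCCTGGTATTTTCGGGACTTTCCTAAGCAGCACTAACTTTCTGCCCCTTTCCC
The first window holds the kappaB consensus at positions 212, 213 and 240, all in the covered bases, and 3.07% of all start windows hold a match in the same stretch. The matches at 212 and 213 overlap in the letters GGGAATTCCCC and are not separate sites. It holds GGGAA 5 times, 4 of them covered, at positions 103, 212, 217 and 246, and 47.2% of windows hold GGGAA in that stretch. It also holds TTCNNNGAA at position 103, against 5.26% of windows in that stretch. The second window holds the kappaB consensus at positions 15 and 261, of which 261 is covered (3.86% of windows hold one in that stretch). It holds GGGAA at positions 154 and 296, both covered (56.8% of windows). GGGAA can lie inside a kappaB match or overlap it, so these counts are not independent. The kappaB consensus also occurs in start windows of members that no region covers, at position 222 for Nfkbia and at position 17 for Stat5a. A match describes the letters and does not show that a factor binds there.

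**Figure D3:**
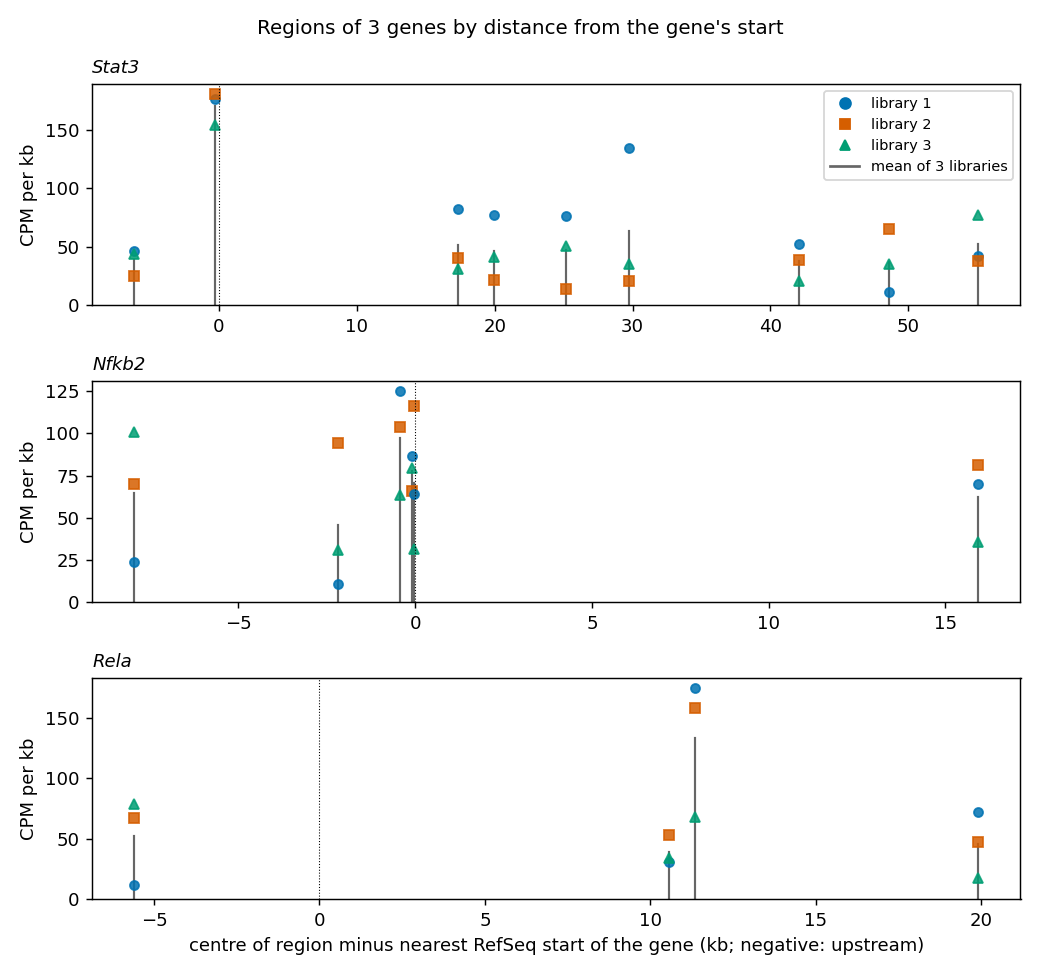
Regions of Stat3, Nfkb2 and Rela by the distance of their centre from the nearest RefSeq start of the gene (horizontal axis, kb, negative upstream), with the value in each library (symbols) and the mean of 3 libraries (lines) in CPM per kb on the vertical axis. The highest region of Stat3 and 3 regions of Nfkb2 stand at or near a start, and the highest region of Rela stands downstream of the gene. The highest region of Nfkb2 lies 362 bp from its nearest start and overlaps no start window.

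Nfkbia (GeneID 18035; chromosome 12, 55489409 to 55492647, minus strand) encodes the inhibitor IkB alpha, which is itself a target gene of NF-kB. It had 4 regions, none in its start window. The highest, chr12:55488652-55488767, lies 642 bp downstream of the span and stood at 20.8, 83.1 and 100.3 CPM per kb in libraries 1, 2 and 3, from 43 reads. A second downstream region, chr12:55485746-55485975, stood at 54.7, 86.2 and 42.0, from 72 reads. The fourth, upstream at chr12:55497559-55497746, held no read in library 1 and stood at 88.5 and 33.4 in libraries 2 and 3.

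Between technical replicates, no region of the 9 genes was called different. The quasi-likelihood test of edgeR, blocked by library, took in 15 of the 55 regions, from 8 members (all but Stat5b), and called 0 of them, against 71 of 27452 over all regions (0.259%). The lowest edgeR adjusted p among the 15 was 0.207. At an unadjusted p under 0.05 edgeR counted 3 of the 15, against 1884 of 27452 over all regions. DESeq2 called 0 of the 15 and counted 2 at that level, against 1389 of 27452. Estimates depended on scaling, by TMM or by library totals, which here are each sample's reads in the tested regions and not the totals behind CPM. The median log2 fold change of all tested regions, technical replicate 2 over technical replicate 1, was 0.41 with TMM and 0.05 with library totals. Relative to that median, 10 of the 15 regions were above it under either scaling.

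Scaled to depth, the highest region of Stat3 had lower values in technical replicate 2. It held 31, 31 and 41 reads in technical replicate 2 of libraries 1, 2 and 3, against 17, 15 and 11 in technical replicate 1, although technical replicate 2 is several times deeper. This gave 139.1, 147.6 and 144.2 CPM per kb in technical replicate 2, against 350.1, 338.1 and 208.0 in technical replicate 1. Technical replicate 2 gave the lower value in each library, but the test did not call the region. The log2 fold change was -0.79 relative to the median region and -0.38 (SE 0.46) before that, with an edgeR adjusted p of 0.990. A count of 3 reads would be worth 10.6 to 14.3 CPM per kb here in technical replicate 2, against 56.7 to 67.6 in technical replicate 1, so a few reads move the shallower samples far.

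Rela and Nfkb2 had their higher means in technical replicate 2, and their regions were not called either. The highest region of Rela held 26, 26 and 16 reads in technical replicate 2, against 7, 2 and 0 in technical replicate 1. This gave 167.3, 177.5 and 80.7 CPM per kb in technical replicate 2, against 206.7, 64.6 and 0 in technical replicate 1, where 3 reads would be 81.3 in library 3. The ranges overlapped, and the log2 fold change was 1.14 relative to the median region, or 1.55 (SE 0.83) before that, with an edgeR adjusted p of 0.773. The highest region of Nfkb2 held 27, 21 and 13 reads in technical replicate 2, against 0, 0 and 4 in technical replicate 1. This gave 152.2, 125.6 and 57.4 CPM per kb in technical replicate 2, against 0, 0 and 95.0 in technical replicate 1, where 3 reads would be 77.6 in library 1 and 84.9 in library 2. Libraries 1 and 2 were higher in technical replicate 2 and library 3 was lower. Its log2 fold change was 1.92 relative to the median region, or 2.34 (SE 1.06) before that, with an unadjusted edgeR p of 0.0270 and an adjusted p of 0.578. The 3 regions around the starts of Nfkb2 together held 83, 86 and 64 reads in technical replicate 2, against 6, 13 and 6 in technical replicate 1.

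The lowest adjusted p belonged to the second region of Nfkbia. It held 21, 29 and 20 reads in technical replicate 2 of libraries 1, 2 and 3, against 0, 2 and 0 in technical replicate 1. Its CPM per kb averaged 71.4 in technical replicate 2, against 10.6 in technical replicate 1. The log2 fold change was 3.12 relative to the median region, or 3.53 (SE 1.13) before that, with an unadjusted edgeR p of 0.00172 and an adjusted p of 0.207. All 3 libraries had more reads in technical replicate 2, and the test over all regions did not call it. The highest regions of the other members held few reads in technical replicate 1. Stat5a had 25 reads in technical replicate 2, against 10 in technical replicate 1, and Stat5b had 37 against 8. Stat6 had 29 reads in technical replicate 2 and 4 in technical replicate 1, and Relb had 22 against 10. For Nfkb1 the counts were 34 in technical replicate 2 and 6 in technical replicate 1, and for Nfkbia 32 against 11. Of these, the region of Stat5a alone passed the filter on low counts.

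**Figure D4:**
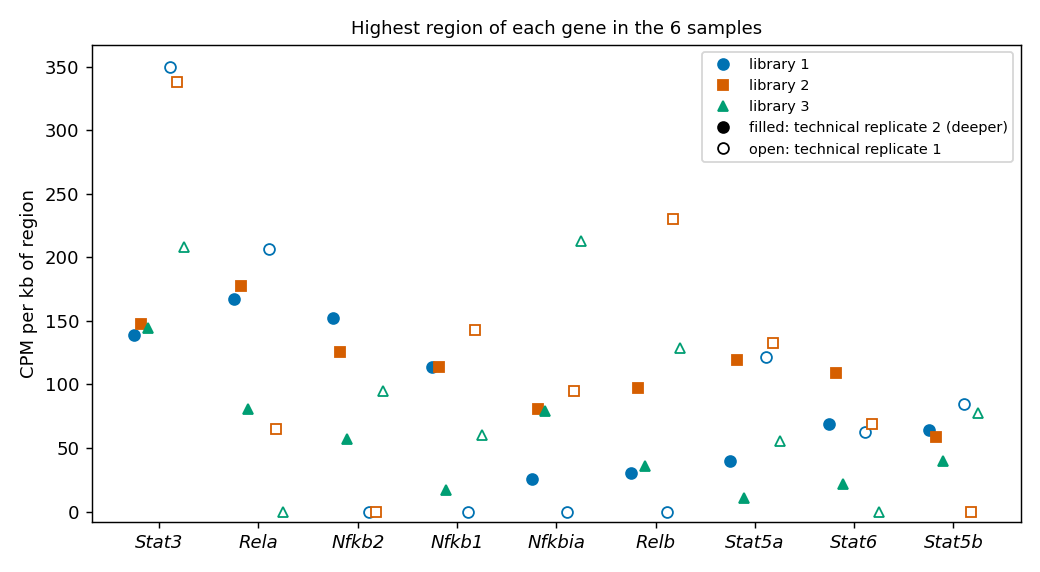
Value of the highest region of each gene (vertical axis, CPM per kb of region) in technical replicate 2 (filled) and technical replicate 1 (open) of library 1 (circles), 2 (squares) and 3 (triangles). Filled symbols of Stat3 lie together at 139.1 to 147.6 below its open ones at 208.0 to 350.1, while open symbols of several other genes lie at 0.

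Between libraries, no region of the members was called either. With the technical replicate as a covariate edgeR called 0 of the 15 regions, against 4 of 27452 over all regions (0.0146%), and each of the 15 had an adjusted p of 1. At an unadjusted p under 0.05 edgeR counted 2, the third region of Nfkb2 and the fourth of Nfkbia, against 1193 of 27452 over all regions. DESeq2 called 0 and counted 1, against 1563 of 27452. The unadjusted edgeR p was 0.0299 at Nfkb2 and 0.00895 at Nfkbia. The third region of Nfkb2 held 34, 58 and 21 reads in libraries 1, 2 and 3, and the fourth of Nfkbia held 0, 26 and 13. The error in this test is the spread between technical replicates, not between cultures.

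The other genes of these pathways, a list of 51 that holds further STATs, JAK kinases, receptors, IkB proteins, IkB kinases and feedback inhibitors, showed a similar share of high values. Of the 51, 49 had a region and 5 (9.80%) were in the top 10% of genes, against the same 8.65% of all genes, and the median of the list was 71.5 CPM per kb. Nfkbie, which encodes the inhibitor IkB epsilon, was highest at 176.2 ± 45.8 and stood at 195.9, 209.0 and 123.9 in libraries 1, 2 and 3. It was the only one of the 51 in the top 10% in all 3 libraries. Its highest region overlaps a start window of any gene, as do those of Stat2, Jak1 and Nfkbib, while that of Tnip1 overlaps none. Stat2, which encodes a STAT protein of the type I interferon response, stood at 133.2 ± 37.3 and Jak1, a kinase of many cytokine receptors, at 122.3 ± 30.3. Nfkbib, which encodes IkB beta, stood at 115.9 ± 34.3 and Tnip1, which encodes a partner of the ubiquitin-editing protein A20, at 112.4 ± 18.8. Csf2ra, a subunit of the GM-CSF receptor, and Ikbkg, which encodes the regulatory subunit of the IkB kinase complex, had no region. edgeR called 2 of 76 tested regions of the list between technical replicates, against the same 0.259% of all regions. Both were higher in technical replicate 2. Their log2 fold changes below are not relative to the median region, which stood at 0.41. The region chr7:28766486-28766816 of Nfkbib held 43, 80 and 66 reads in technical replicate 2, against 6, 0 and 6 in technical replicate 1 (log2 fold change 2.32, SE 0.54, edgeR adjusted p = 0.00848). The region chr7:19824183-19824546 of Bcl3, an atypical IkB protein, held 22, 50 and 48 reads in technical replicate 2, against 2, 3 and 0 in technical replicate 1 (2.90, SE 0.75, edgeR adjusted p = 0.0461). With library totals, with DESeq2, without the block, without the filter or without any 1 library, 0 regions of the list were called. At an unadjusted p under 0.05 the main edgeR fit counted 15 of the 76, against 1884 of 27452 over all regions. Under the alternatives there were 5 to 30. With library totals there were 7 of 76, against 1050 of 27452, and with DESeq2 10 of 76, against 1389. Without the block there were 5 of 39, against 586 of 9743 over all regions, and without the filter 30 of 325, against 7932 of 151133. Between libraries edgeR called 0 of the 76, with 3 at an unadjusted p under 0.05, and DESeq2 called 0, with 4, beside the 1193 and 1563 of all regions given above for edgeR and DESeq2.

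The genes most like Stat3 over the 6 samples were found by Euclidean distance in log2(CPM per kb + 1) of the highest region. Vwf, which encodes von Willebrand factor, was nearest at a distance of 0.912, with a value of 208.8 ± 53.4 from chr6:125573344-125573469, which overlaps no start window. This region stood at 139.6, 253.0 and 186.9 CPM per kb in technical replicate 2 of libraries 1, 2 and 3, against 320.3, 350.5 and 171.5 in technical replicate 1. Technical replicate 2 was thus lower in libraries 1 and 2 and higher in library 3. Arrdc2 and Kcnn1 followed at 0.997 and share a single region in a start window, at 178.5 ± 51.1.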

How the data were processed

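The members, the pathway list, the tests and the alternatives were chosen with earlier results of these data known. Groups came from the sample titles. Each of the 6 deposited tables holds a read count per region of a common set, not normalized by the authors. Bowtie2 2.3.3.1, MACS2 and mm10 are named per the submitters' processing notes. Their roles, the peak threshold and the samples that entered peak calling were not given in the sources used here. Totals are of reads in regions, not sequencing depth. Region starts are printed as deposited and may count from 0 or 1. Covered bases run from the start plus 1 to the end, which lie in the region either way.

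CPM per kb was computed here from technical replicates summed per library, which favours narrow regions. Gene spans, names and start windows came from RefSeq tables of GRCm38.p6, and all 9 members and 51 pathway genes matched. Start windows with strand were found for 7 members. All members were named, and pathway genes where they lay in the top 10% or had no region. Bcl3 and the regions of called pathway genes, the second pair of sequences and the other lower regions were picked after their values were seen.

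Counts were tested in R 4.3.3 with edgeR 4.0.16 (filterByExpr, TMM, glmQLFit, glmQLFTest; Benjamini-Hochberg over all tested regions, threshold 0.05), with DESeq2 1.42.0 as an alternative, after checks on simulated data. The simulated counts were independent draws with a fixed dispersion, so these checks do not cover the dependence between reads seen here. By the titles a library holds both its technical replicates, so the library was a block. Their deviations correlated at 0.175, 0.191 and 0.184 within libraries and at -0.109 to -0.071 between libraries. Since deviations cancel over the libraries, the negative values follow from the positive ones and are no separate support. Other steps used Python 3.11.15, numpy 2.4.6, pandas 2.3.3 and matplotlib 3.10.9.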

Additional observations from a re-analysis of the deposited data

How the results depend on the processing

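Several alternatives could hardly move a gene value. Flanks of 1 or 5 kb gave every member the same value, and leaving out mitochondrial regions changed only the total. Leaving out 1 library moves the mean of a region by less than its own SD. Of 93 alternative gene values, 85 lay within 1 SD of the value reported, a count that is therefore no measure of stability. The other 8 were Stat3 at 63.8 with all regions summed, 46.8 on regions of 200 bp or wider, 143.6 in technical replicate 2 alone and 298.7 in technical replicate 1 alone, Rela at 65.5 with regions summed, and Stat5b at 88.8, Relb at 119.9 and Nfkb2 at 53.0 in technical replicate 1 alone. The count of members in the top 10% of genes, 2, was 1 with regions summed (Nfkb2), 0 on regions of 200 bp or wider, where Stat5a, Stat5b and Rela have no region, and 1 in technical replicate 1 alone (Stat3). It was 2 with no division by width, but those were Stat3 and Nfkb2 in place of Stat3 and Rela. It was 3 in technical replicate 2 alone (Stat3, Rela and Nfkb2), and 2 without any 1 library. Of all regions, edgeR called 71 between technical replicates, 38 higher and 33 lower in technical replicate 2. With library totals it called 55 (9 higher, 46 lower), DESeq2 called 56 (14 higher, 42 lower), and without the filter edgeR called 46 (15 higher, 31 lower). With no replicate block the count was 46 (5 higher, 41 lower), but the low-count filter follows the model and left 9743 regions to test, against 27452, so the effect of the block alone was not separated. Leaving out a library gave 0 to 18: 18 without library 1, 0 without library 2 (819 at an unadjusted p under 0.05) and 8 without library 3. Between libraries the count of 4 was 0 with the technical replicate left out of the model (1507 at an unadjusted p under 0.05) and 0 to 4 without 1 library, 0 without library 2 (1122 at an unadjusted p under 0.05) and 0 without library 3 (956). No region of the members was called by edgeR or DESeq2 under any of these alternatives. The cause of these changes was not tested, except that fewer libraries, wider regions or the model without the block leave fewer regions. Depth limits technical replicate 1, where 3 reads in the highest region of a member are worth 56.7 to 115.3 CPM per kb.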
